A study of Mus musculus with 60 samples.

Results

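The 9 genes described here encode enzymes that build triglyceride from glycerol 3-phosphate: Gpd1, Pck1, Gpam, Agpat2, Lpin1, Lpin2, Lpin3, Dgat1 and Dgat2. They were picked by gene symbol from 2 gene expression tables of 24982 rows each, and all 9 were found in both. The tables come from RNA sequencing of C3H10T1/2 cells, a mouse mesenchymal line that can be turned into fat cells in culture. One, called the knockout table here, covers Tet1-KO cells, labelled as lacking Tet1, and WT cells (24 libraries). The other, called the 23-cell table, covers cells titled 23-CATA, 23-Tet1 and 23-NC (36 libraries). Each of the 5 populations was sampled on days 0, 2, 4 and 6 of differentiation with 3 libraries a day, which gives 20 groups. All groups received the same medium: confluent cells were induced for 48 h with dexamethasone, IBMX, insulin, rosiglitazone and the thyroid hormone T3, and then kept in insulin. The series title links TET1, an enzyme that oxidises methylated cytosine in DNA, to fat cell formation, and the comparisons ask how far expression differs when Tet1 is lost or added. What 23-CATA, 23-Tet1 and 23-NC carry, and whether the Tet1-KO cells are 1 clone, is not given in the sources used here.

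Fat cells store fatty acids as triglyceride on a glycerol backbone. Gpd1, the cytosolic glycerol-3-phosphate dehydrogenase, makes that backbone from a glycolytic intermediate, and Pck1, the cytosolic phosphoenolpyruvate carboxykinase, acts in its synthesis from pyruvate in fat. Gpam adds the first fatty acid, Agpat2 the second, the lipins Lpin1, Lpin2 and Lpin3 remove the phosphate to give diacylglycerol, and Dgat1 and Dgat2 add the last fatty acid. Several of these genes are known targets of PPARG, the nuclear receptor that rosiglitazone activates, and loss of AGPAT2 in people causes a severe lack of fat tissue.

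Levels are given as FPKM, a fragment count scaled to transcript length and library size, so they can be compared between genes. Depth, read from the steps between low FPKM values, was about 12450000 to 19300000 fragments in 59 libraries and unclear in 1. That library, Tet1-KO day 6 replicate 2, stood apart: it listed 11805 genes above 0, while the rest of the knockout table listed 13837 to 14954. Day 6 values of Tet1-KO cells are therefore also given without it. Tet1 itself measured 0.26, 0.24 and 0.25 FPKM in Tet1-KO cells on day 0, against 0.88, 1.12 and 1.03 FPKM in WT cells, and at most 0.11 FPKM in both on later days. It lay between 5.75 and 21.56 FPKM in 23-CATA cells and between 4.04 and 7.46 FPKM in 23-Tet1 cells, against at most 0.12 FPKM in 23-NC cells. Changes are log2 differences of FPKM + 1 minus the median change of all genes tested, each ± the SE of the fitted difference. The adjusted p-values (limma, Benjamini-Hochberg over all genes of a comparison) test the difference before that median is subtracted, and a gene is said to have risen or fallen at an adjusted p under 0.05. Nothing in the labels says that the 3 libraries of a group came from separate cultures, so p-values cover the spread among these libraries alone, and that spread may be technical.

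In WT cells most of the pathway had risen by day 2. On day 4 against day 0, 7 of the 9 genes rose (18.1% of the 11911 genes tested did) and 1 fell (49.2% of genes did). Their median change was 4.88, beside quartiles of -0.70 and 0.76 for all genes, after a median change of all genes of -0.52 was subtracted. On day 2 the counts were 7 higher (18.9% of genes) and 1 lower (43.2% of genes), with a median shift of -0.39. On day 6 they were 8 higher (19.2% of genes) and 0 lower (37.4% of genes), with a shift of -0.29.

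The backbone enzymes started from near nothing. In WT cells Gpd1 measured 1.73, 5.12 and 1.28 FPKM on day 0, 161.78, 416.86 and 160.06 FPKM on day 2, 1917.81, 3487.78 and 3168.64 FPKM on day 4, and 1553.43, 879.86 and 1676.5 FPKM on day 6. Its day 4 libraries all lay above those of every other day, and day 4 exceeded day 0 by 10.20 ± 0.82 (adjusted p = 1.01e-08). Pck1 was listed at 0, 0.18 and 0 FPKM on day 0, and measured 4.15, 8.16 and 4.18 FPKM on day 2, 16.66, 26.42 and 20.38 FPKM on day 4, and 35.04, 37 and 41.78 FPKM on day 6. Pck1 was the member that kept climbing to day 6, by 0.61 ± 0.32 on day 6 against day 4. This step did not pass the test in the fit of all groups (adjusted p = 0.0738). It did when the fit left out Tet1-KO day 6 replicate 2 (adjusted p = 0.0161) or held these 2 days alone (adjusted p = 0.00211).

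By mean level, and with libraries that overlapped those of Gpd1 on day 4, Agpat2 was the most abundant of the 9 transcripts in WT cells on days 2 and 4. It measured 18.79, 22.18 and 17.5 FPKM on day 0, 1648.29, 2095.13 and 1626.91 FPKM on day 2, 3037.49, 3244.76 and 3201.94 FPKM on day 4, and 819.82, 668.41 and 962.02 FPKM on day 6. Its levels on the 4 days did not overlap, and day 4 exceeded day 0 by 7.79 ± 0.66 (adjusted p = 2.41e-08). On day 6 it fell by 2.19 ± 0.66 against day 4 (adjusted p = 0.0401), a call lost without any single one of the 6 libraries compared (highest adjusted p 0.105). The annotation places Egfl7 on the other strand within the same stretch of chromosome 2, and reads of overlapping genes cannot be told apart where the use of strand is not given. The same holds for Gpd1 and Gm16537 on chromosome 15, where Gm16537 reached at most 5.53 FPKM in the knockout table. Other overlaps on the opposite strand are Gm20532 with Agpat2, Gm16751 with Lpin3 and AC110206.1 with Gpam. Gm26561 overlaps Lpin2 on the same strand. Levels of these further overlapping genes are not given here. Egfl7 reached at most 21.11 FPKM in the knockout table, where Agpat2 reached 3244.76 FPKM.

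Gpam, the enzyme of the first acylation, moved least among the acyltransferases. It averaged 11.3 ± 0.8 FPKM on day 0, 39.6 ± 3.1 FPKM on day 2, 28.8 ± 1.8 FPKM on day 4 and 31.8 ± 2.7 FPKM on day 6 in WT cells (SD, n = 3 each), and day 2 exceeded day 0 by 2.11 ± 0.42 (adjusted p = 0.00137). Dgat1 averaged 12.9 ± 0.7, 396 ± 40, 453 ± 24 and 324 ± 24 FPKM on days 0, 2, 4 and 6, so that day 2 already held most of its rise of 5.55 ± 0.45 to day 4 (adjusted p = 2.17e-08). Dgat2 averaged 13.8 ± 2.5, 241 ± 62, 437 ± 50 and 293 ± 76 FPKM on the same days, with a rise of 5.41 ± 0.75 to day 4 (adjusted p = 1.2e-05). Dgat1 and Dgat2, which do the same chemistry but share no sequence ancestry, thus reached like levels.

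The 3 lipins went separate ways in WT cells. Lpin1, the main lipin of fat tissue, measured 1.45, 2.04 and 1.71 FPKM on day 0, 10.62, 13.99 and 9.31 FPKM on day 2, 41.91, 64.33 and 61.79 FPKM on day 4, and 29.52, 44.28 and 42.13 FPKM on day 6, a rise of 4.88 ± 0.45 to day 4 (adjusted p = 9.37e-08). Lpin2 went the other way, with 6.21, 5.81 and 6.05 FPKM on day 0, 2.89, 2.83 and 3.08 FPKM on day 2, 2.19, 2.51 and 2.79 FPKM on day 4, and 6.24, 6.59 and 7.15 FPKM on day 6. It fell by 0.49 ± 0.18 to day 4 (adjusted p = 7.48e-05, but 0.352 after quantile normalization) and rose by 0.91 ± 0.18 from there to day 6 (adjusted p = 0.000375). Its fall to day 2 was also lost after quantile normalization (adjusted p = 0.72). Lpin3 stayed between 0.45 and 2.43 FPKM, and its rise of 0.89 ± 0.25 to day 6 (adjusted p = 0.044) was lost without any of the 3 day 0 libraries or without day 6 replicate 1 or 3 (highest adjusted p 0.173).

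In the GENCODE M21 annotation of GRCm38, the mm10 build, Pck1 lies at chr2:173153048-173159273 on the plus strand and Gpd1 at chr15:99717515-99725005 on the plus strand. Gpam lies at chr19:55067268-55127238 and Agpat2 at chr2:26593057-26604417, both on the minus strand. The lipins lie at chr12:16535669-16610966 on the minus strand (Lpin1), chr17:71182560-71249817 on the plus strand (Lpin2) and chr2:160880670-160906002 on the plus strand (Lpin3). Dgat1 lies at chr15:76502015-76511953 and Dgat2 at chr7:99153658-99182719, both on the minus strand. The values are sums over each gene, so exons and isoforms are not told apart.

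RefSeq start sites (GRCm38.p6) gave promoter windows of 250 bases for 6 of the 9 genes, 10 windows in all. The windows of 4 genes that rose together in WT cells are shown because they differ in the elements they hold. Capitals mark matches to short motifs sought on both strands: AGGTCA, the core of nuclear receptor elements, and TGACG, the core of a cAMP response element, which reads CGTCA when it lies on the opposite strand. The full cAMP element TGACGTCA and the direct repeat DR1, which contain these cores, were also sought. So were the CCAAT box, the TATAAA box, the E-box CACGTG and the C/EBP motif TTGCNNAA.
Pck1, chr2:173152823-173153072, plus strand: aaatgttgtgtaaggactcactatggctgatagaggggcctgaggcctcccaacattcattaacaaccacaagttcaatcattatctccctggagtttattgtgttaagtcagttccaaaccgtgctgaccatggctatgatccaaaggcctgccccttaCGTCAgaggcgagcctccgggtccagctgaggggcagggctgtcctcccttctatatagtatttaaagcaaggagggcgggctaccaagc
Lpin1, chr12:16610967-16611216, minus strand: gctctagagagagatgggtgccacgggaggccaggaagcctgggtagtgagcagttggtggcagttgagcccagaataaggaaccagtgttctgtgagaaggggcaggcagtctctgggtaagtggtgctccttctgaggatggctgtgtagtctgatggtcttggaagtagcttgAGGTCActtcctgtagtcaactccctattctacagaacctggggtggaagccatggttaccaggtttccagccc
Gpam, second start, chr19:55099478-55099727, minus strand: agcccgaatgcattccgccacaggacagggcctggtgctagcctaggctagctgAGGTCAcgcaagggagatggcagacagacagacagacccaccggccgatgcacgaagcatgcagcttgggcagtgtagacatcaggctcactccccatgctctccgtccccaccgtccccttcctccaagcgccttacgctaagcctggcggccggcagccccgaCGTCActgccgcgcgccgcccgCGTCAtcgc
Agpat2, chr2:26604418-26604667, minus strand: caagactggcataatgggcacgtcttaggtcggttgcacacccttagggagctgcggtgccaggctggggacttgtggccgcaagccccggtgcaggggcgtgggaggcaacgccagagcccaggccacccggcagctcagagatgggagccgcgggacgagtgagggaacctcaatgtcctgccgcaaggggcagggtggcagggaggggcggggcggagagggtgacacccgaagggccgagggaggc
The Pck1 window holds TGACG at bases 90 to 86 before the start. In the rat gene a cAMP response element near the start is well known. AGGTCA stands 74 to 69 bases before the Lpin1 start and 196 to 191 bases before the second Gpam start, which also holds TGACG at 31 to 27 and at 9 to 5. None of the 8 motifs searched is in the Agpat2 window. Over all 32851 windows, AGGTCA is in 14.02% and TGACG in 17.77%, so neither match is rare. CpG pairs, the sites that TET1 acts on when methylated, number 5 in the Pck1 window, 1 for Lpin1, 21 for the second Gpam start and 16 for Agpat2, beside a median of 6 over all windows (quartiles 2 and 16). The window of the first Gpam start, not shown, holds 7.

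In Tet1-KO cells most of the 9 genes had risen by day 4, and libraries of a group often lay far apart. On day 2 against day 0, 4 of the 9 passed, all as rises (22.5% of genes passed in either direction), with a median shift of all genes of -0.10. On day 4, 6 rose and 1, Lpin2, fell (46.8% of genes passed), with a shift of -0.29. The Lpin2 fall was lost after quantile normalization (adjusted p = 0.208). On day 6, 6 rose and 0 fell (45.6% of genes passed), with a shift of -0.38. With days 0 and 6 fitted alone, these rises were lost for Gpam (adjusted p = 0.24), Agpat2 (adjusted p = 0.11), Lpin1 (adjusted p = 0.144) and Dgat1 (adjusted p = 0.0861). On day 2, Gpam rose by 2.19 ± 0.42 (adjusted p = 0.00144) and Agpat2 by 4.82 ± 0.66 (adjusted p = 5.79e-05). Dgat1 rose by 3.13 ± 0.45 (adjusted p = 0.000109) and Dgat2 by 3.26 ± 0.75 (adjusted p = 0.00548, and 0.0509 without day 2 replicate 2). Gpd1 and Lpin1 did not pass on day 2 with all libraries in an unweighted fit. Both did in the fit without day 6 replicate 2 (adjusted p = 0.0184 and 0.0465), with the 2 days fitted alone (adjusted p = 0.0207 and 0.0305), with library weights (adjusted p = 0.00232 and 0.00358) and after quantile normalization (adjusted p = 0.0369 and 0.0406), which makes 6 rises. Without day 2 replicate 1, Gpd1 also passed (adjusted p = 0.0375). On day 4 Gpd1 exceeded day 0 by 6.86 ± 0.82 (adjusted p = 6.58e-06), and on day 6 Pck1 did by 1.77 ± 0.32 (adjusted p = 0.00266). The rise of Gpam to day 4, 1.57 ± 0.42 (adjusted p = 0.0167), was lost without day 4 replicate 1 (adjusted p = 0.0558) or 2 (adjusted p = 0.0719). Its rise to day 6, 1.61 ± 0.42 (adjusted p = 0.023), was 0.68 without day 6 replicate 2 (adjusted p = 0.155) and missed the threshold without any of the day 0 libraries. Lpin1 rose by 1.62 ± 0.45 to day 6 (adjusted p = 0.0307), a call lost without any of the day 0 libraries or day 6 replicate 1 or 3 (highest adjusted p 0.131).

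**Figure D1:**
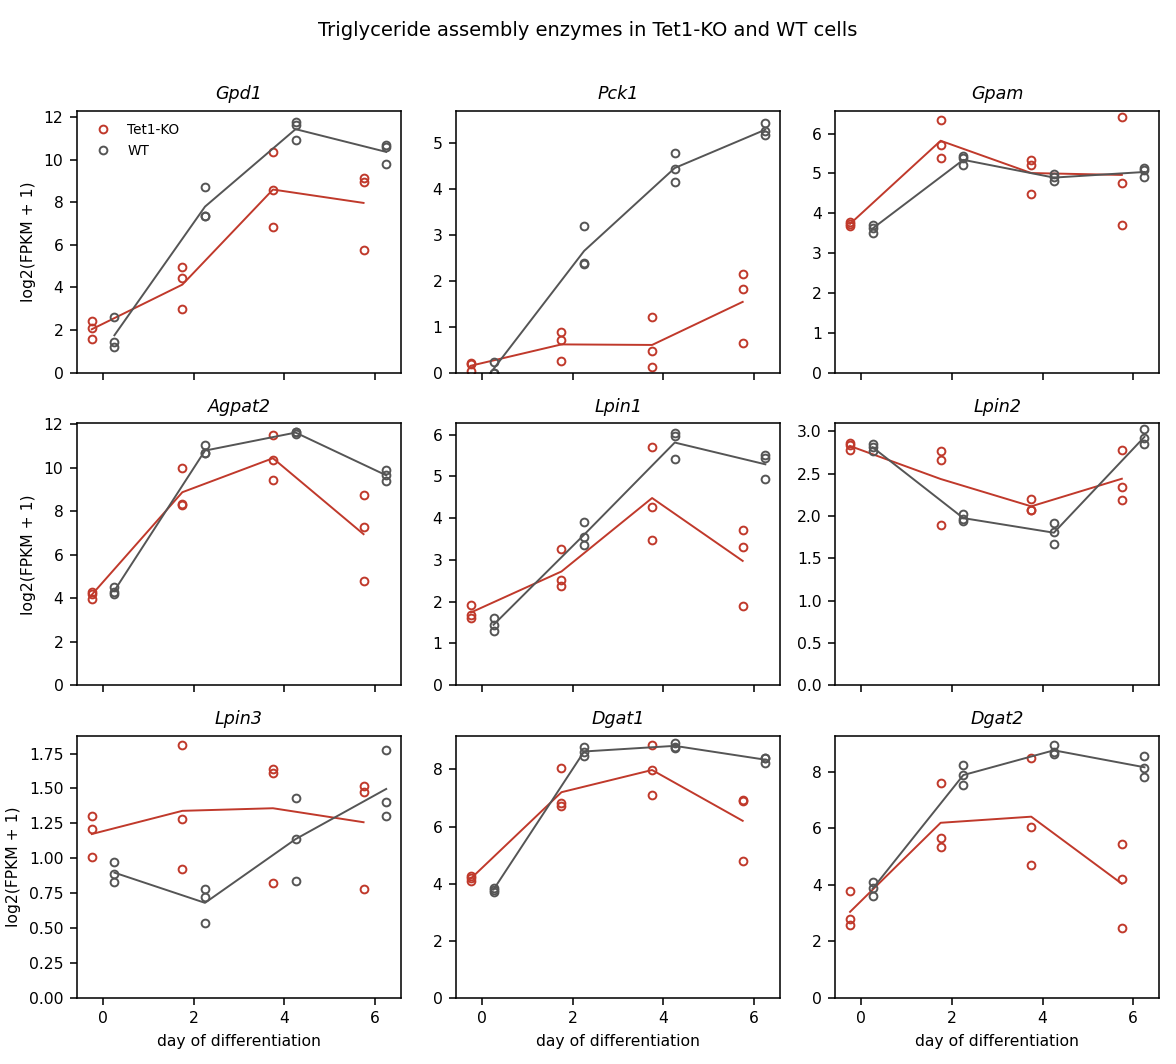
Level of each gene as log2(FPKM + 1) by day in Tet1-KO (red, drawn left) and WT cells (grey), with 1 circle per library and lines through the means of the 3 libraries. WT libraries of Gpd1, Agpat2, Dgat1 and Dgat2 sit close together on day 4, where Tet1-KO libraries spread from 113.81 to 1326.04 FPKM for Gpd1, and Pck1 stays at or below 3.42 FPKM in every Tet1-KO library.

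Set against WT cells on the same day, 0 of the 9 genes passed in Tet1-KO cells on day 0 (limma), 0 also at an unadjusted p under 0.05, where 695 of 11911 genes passed as higher (5.83%) and 1307 as lower (11.0%). The largest day 0 difference was that of Dgat2, with 5.85, 4.93 and 12.83 FPKM in Tet1-KO cells against 11.33, 16.25 and 13.68 FPKM in WT cells (-0.74 ± 0.75, adjusted p = 0.491). With libraries weighted by their scatter around the group mean, Dgat2 was lower in Tet1-KO cells on day 0 (-1.06, adjusted p = 4.4e-05). In that fit Dgat1 (0.392, adjusted p = 0.00918) and Lpin3 (0.374, adjusted p = 0.0167) were higher. When the 2 groups were fitted alone, Dgat2 was lower (-0.72, adjusted p = 0.0439) and Dgat1 higher (0.491, adjusted p = 0.0107). From day 2 the genes that passed with all libraries in an unweighted fit were all lower in Tet1-KO cells: 4 on day 2 (6.76% of genes were lower), 4 on day 4 (6.22% of genes) and 7 on day 6 (29.7% of genes). On these days 0 of the 9 were higher in that fit (16.2%, 9.79% and 15.7% of genes were). Alternatives added calls in the other direction. On day 2 Lpin2 and Lpin3 were higher with the replicate number as a block (0.297, adjusted p = 0.046, and 0.494, adjusted p = 0.0216), in the fit without Tet1-KO day 6 replicate 2 (adjusted p = 0.0364 and 0.0251), with library weights (adjusted p = 1.13e-05 and 0.00056) and without Tet1-KO day 2 replicate 2 (adjusted p = 0.00139 and 0.0161). Lpin3 also passed there at a pseudocount of 0.1 (adjusted p = 0.0454). On day 4 Gpam (0.221, adjusted p = 0.00136), Lpin2 (0.18, adjusted p = 0.000245) and Lpin3 (0.398, adjusted p = 4.78e-05) were higher with library weights. In that fit Tet1-KO day 4 replicate 1 had a weight of 20.1, against 0.132 and 0.271 for replicates 2 and 3. These calls thus rest largely on replicate 1. The median change of the 9 genes was 0.20 on day 0, -1.59 on day 2, -1.27 on day 4 and -2.12 on day 6, after median shifts of all genes of 0.17 on day 2 and -0.20 on day 6. In these bulk samples, fewer fat cells and less RNA of a gene per fat cell cannot be told apart. The 8 adipocyte markers summed to between 270.79 and 451.17 FPKM in Tet1-KO libraries against 93.93 to 234.37 FPKM in WT libraries on day 0, the opposite order to later days. They summed to between 8310.6 and 48653.91 FPKM in Tet1-KO libraries against 50480.83 to 65933.15 FPKM in WT libraries on day 2. The sums were 23238.06 to 86076.97 FPKM in Tet1-KO libraries against 89612.03 to 108913.46 FPKM in WT libraries on day 4, and 29282.63 to 34172.65 FPKM in Tet1-KO libraries against 63201.08 to 67538.85 FPKM in WT libraries on day 6. Their part in the differences was not tested. The 7 mesenchymal markers summed to 2680.97 to 5690.59 FPKM in Tet1-KO libraries against 1287.59 to 2288.53 FPKM in WT libraries on day 6.

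Pck1 showed the steadiest difference. On day 2 it measured 0.19, 0.63 and 0.84 FPKM in Tet1-KO cells, against 4.15, 8.16 and 4.18 FPKM in WT cells. On day 4 it measured 0.39, 1.32 and 0.08 FPKM in Tet1-KO cells, against 16.66, 26.42 and 20.38 FPKM in WT cells. On day 6 it measured 2.54, 0.56 and 3.42 FPKM in Tet1-KO cells, against 35.04, 37 and 41.78 FPKM in WT cells. No Tet1-KO library reached the level of any WT library on these days. The changes were -2.20 ± 0.32 on day 2 (adjusted p = 0.000502), -3.94 ± 0.32 on day 4 (adjusted p = 2.74e-07) and -3.55 ± 0.32 on day 6 (adjusted p = 1.82e-07), and each passed under every alternative tried. Genes of liver and kidney, the other organs known for Pck1, were close to absent: the 6 markers of these organs summed to at most 1.85 FPKM in any library of the knockout table, and Ttr was at 0 in all of them.

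Gpd1 varied widely between Tet1-KO libraries. On day 2 it measured 6.92, 20.89 and 30.03 FPKM in Tet1-KO cells, against 161.78, 416.86 and 160.06 FPKM in WT cells, a change of -3.83 ± 0.82 (adjusted p = 0.00454) that passed under every alternative. On day 4 it measured 380.75, 1326.04 and 113.81 FPKM in Tet1-KO cells, against 1917.81, 3487.78 and 3168.64 FPKM in WT cells, a change of -2.93 ± 0.82 (adjusted p = 0.0236). The groups did not overlap, but the call was lost without Tet1-KO replicate 1 (adjusted p = 0.0829) or 3 (adjusted p = 0.191) and without WT replicate 2 (adjusted p = 0.0878) or 3 (adjusted p = 0.0755). Its day 6 values were 501.16, 53.91 and 569.62 FPKM in Tet1-KO cells, against 1553.43, 879.86 and 1676.5 FPKM in WT cells, a change of -2.20 ± 0.82 (adjusted p = 0.0228). Without Tet1-KO replicate 2, the library that stands apart, the change was -1.30 (adjusted p = 0.158), and the call was also lost without WT replicate 1 (adjusted p = 0.0631) or 3 (adjusted p = 0.0702).

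Of the acyltransferases that act before the lipins, Agpat2 was lower on days 2 and 6, and Gpam did not pass with all libraries. On day 2 Agpat2 measured 327.53, 1032.43 and 307.93 FPKM in Tet1-KO cells, against 1648.29, 2095.13 and 1626.91 FPKM in WT cells, a change of -2.08 ± 0.66 (adjusted p = 0.0426) that was lost without Tet1-KO replicate 1 or 3 or any of the WT libraries (highest adjusted p 0.18). On day 4 it measured 1308.68, 2966.69 and 697.48 FPKM in Tet1-KO cells, against 3037.49, 3244.76 and 3201.94 FPKM in WT cells, and its change of -1.27 ± 0.66 did not pass (adjusted p = 0.237, but 8.48e-09 with library weights). The weighted value rests largely on Tet1-KO day 4 replicate 1, with a weight of 20.1 against 0.132 and 0.271 for replicates 2 and 3. By day 6 Agpat2 measured 435.2, 26.75 and 155.34 FPKM in Tet1-KO cells, against 819.82, 668.41 and 962.02 FPKM in WT cells. That change was -2.51 ± 0.66 (adjusted p = 0.00299), or -1.63 without Tet1-KO replicate 2 (adjusted p = 0.0143), and it missed the threshold when the 2 groups were fitted alone (adjusted p = 0.1). Gpam measured 51.5, 80.54 and 40.97 FPKM in Tet1-KO cells on day 2, against 40.44, 36.1 and 42.15 FPKM in WT cells. On day 6 it measured 26.07, 84.91 and 11.97 FPKM in Tet1-KO cells, against 33.88, 28.84 and 32.82 FPKM in WT cells. Its day 6 change was 0.12 ± 0.42 (adjusted p = 0.895) with all libraries. Without the library of 84.91 FPKM, which is the one that stands apart, Gpam was lower, at -0.80 (adjusted p = 0.0247).

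Lpin1 and Dgat2 were also lower in Tet1-KO cells on day 6, with no overlap between the groups. On day 6 Lpin1 measured 12.17, 2.72 and 8.92 FPKM in Tet1-KO cells, against 29.52, 44.28 and 42.13 FPKM in WT cells, a change of -2.12 ± 0.45 (adjusted p = 0.00047) and of -1.77 without Tet1-KO replicate 2 (adjusted p = 0.00261). Dgat2 measured 42.37, 4.6 and 17.35 FPKM in Tet1-KO cells on day 6, against 223.29, 374.37 and 280.83 FPKM in WT cells, a change of -3.93 ± 0.75 (adjusted p = 0.000293) and of -3.34 without that replicate (adjusted p = 0.00184). Both calls passed under every alternative. On day 4 both had also passed, Lpin1 at -1.42 ± 0.45 (adjusted p = 0.048) and Dgat2 at -2.44 ± 0.75 (adjusted p = 0.0389), but each of these calls was lost without Tet1-KO replicate 1 or 3 or any of the WT libraries (highest adjusted p 0.322 for Lpin1 and 0.279 for Dgat2). Tet1-KO replicate 2 of day 4 held 51.29 FPKM of Lpin1 and 357.86 FPKM of Dgat2, against 10.07 to 18.22 and 25.35 to 64.89 FPKM in the other Tet1-KO libraries of that day.

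Dgat1 measured 104.95, 261.87 and 113.6 FPKM in Tet1-KO cells on day 2, against 392.38, 438.03 and 357.79 FPKM in WT cells, a change of -1.59 ± 0.45 (adjusted p = 0.0289) that was lost without Tet1-KO replicate 1 or 3 or any WT library (highest adjusted p 0.154). By day 6 it measured 120.2, 26.41 and 118.48 FPKM in Tet1-KO cells, against 295.41, 338.56 and 337.07 FPKM in WT cells, a change of -1.95 ± 0.45 (adjusted p = 0.00101, or -1.42 and 0.00374 without Tet1-KO replicate 2). That day 6 call missed the threshold only when the 2 groups were fitted alone (adjusted p = 0.0631). Lpin2 averaged 4.51 ± 1.22 FPKM in Tet1-KO cells and 6.66 ± 0.46 FPKM in WT cells on day 6 (SD, n = 3 each), a small change of -0.30 ± 0.18 (adjusted p = 0.0336). The Lpin2 call was lost without Tet1-KO replicate 1 or 2 or any WT library (highest adjusted p 0.117) and after quantile normalization (adjusted p = 0.312). Lpin3 stayed between 0.72 and 1.86 FPKM in Tet1-KO cells and between 1.47 and 2.43 FPKM in WT cells on day 6, with a change of -0.04 ± 0.25 (adjusted p = 0.444).

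The test of the difference between differences asked whether the change to day 6 from day 0 was unlike in the 2 populations. It passed for 4 of the 9 genes, all with a smaller change in Tet1-KO cells (10.6% of genes were lower), and for 0 with a larger one (7.16% of genes). The differences were -3.72 ± 0.46 for Pck1 (adjusted p = 2.35e-05), -2.51 ± 0.63 for Lpin1 (adjusted p = 0.00782) and -2.43 ± 0.64 for Dgat1 (adjusted p = 0.0108), and these 3 passed under every alternative. For Dgat2 it was -3.21 ± 1.06 (adjusted p = 0.0372), a call lost without Tet1-KO day 0 replicate 1 or 3, Tet1-KO day 6 replicate 2, any WT day 0 library or WT day 6 replicate 2 or 3 (highest adjusted p 0.0878). Gpd1, at -2.58 ± 1.15 (adjusted p = 0.11), and Agpat2, at -2.43 ± 0.94 (adjusted p = 0.0668), did not pass with all libraries. Agpat2 passed without Tet1-KO day 6 replicate 1 (adjusted p = 0.00444), and Gpd1 without Tet1-KO day 6 replicate 3 (adjusted p = 0.0475).

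In the 23-cell table libraries of a group lay closer together, and 23-CATA cells expressed much of the pathway before induction. On day 0, 8 of the 9 genes were higher in 23-CATA than in 23-NC cells (31.6% of the 12229 genes tested were) and 0 were lower (11.7% of genes), with a median of 0.97 and a median shift of all genes of 0.11. Gpd1 measured 188.63, 200.54 and 190.19 FPKM in 23-CATA cells, against 0.49, 0.73 and 0.55 FPKM in 23-NC cells, a change of 6.83 ± 0.06 (adjusted p = 6.27e-35). Agpat2 measured 56.77, 53.38 and 55.94 FPKM in 23-CATA cells, against 21.72, 15.34 and 14.57 FPKM in 23-NC cells (1.54 ± 0.10, adjusted p = 2.97e-14). Pck1 measured 1.18, 1.09 and 1.06 FPKM in 23-CATA cells and was listed at 0 in all 23-NC libraries. The 2 groups did not overlap for any of the 8 genes. The adipocyte markers moved with them, with a sum of 2432.46 to 2591.38 FPKM in 23-CATA libraries against 59.72 to 66.11 FPKM in 23-NC libraries, and their part in the differences was not tested.

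Dgat1, Dgat2, Lpin1, Gpam and Lpin3 were also higher in 23-CATA cells on day 0, each by less than Gpd1. Dgat1 measured 43.45, 44.68 and 41.48 FPKM in 23-CATA cells, against 16.21, 11.95 and 11.32 FPKM in 23-NC cells (1.55 ± 0.09, adjusted p = 5.3e-15). Dgat2 measured 38.2, 39.18 and 38.28 FPKM in 23-CATA cells, against 17.31, 17.15 and 15.62 FPKM in 23-NC cells (1.05 ± 0.06, adjusted p = 1.52e-15). Lpin1 averaged 11.2 ± 0.4 FPKM in 23-CATA cells and 5.47 ± 1.42 FPKM in 23-NC cells (SD, n = 3 each), a change of 0.83 ± 0.11 (adjusted p = 7.6e-08). Gpam, at 0.48 ± 0.08 (adjusted p = 7.55e-07), and Lpin3, at 0.41 ± 0.08 (adjusted p = 3.13e-06), were the smallest of the 8, and Lpin2, at -0.17 ± 0.09 (adjusted p = 0.58), did not pass.

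During differentiation the 23-CATA difference from 23-NC split by gene from day 2. On day 2, 7 genes were higher (34.3% of genes) and 2, Lpin2 and Lpin3, lower (30.7% of genes). On day 4, 6 were higher (28.8% of genes) and 2 lower (39.9% of genes), and on day 6, 6 were higher (38.0% of genes) and 3 lower (36.4% of genes). Gpd1 measured 2116.62, 2051.56 and 2191.43 FPKM in 23-CATA cells on day 2, against 3.3, 3.28 and 3.61 FPKM in 23-NC cells, a change of 8.89 ± 0.06 (adjusted p = 4.88e-38). Pck1 measured 24.85, 25 and 21.96 FPKM in 23-CATA cells on day 6, against 0.03, 0.14 and 0.2 FPKM in 23-NC cells, a change of 4.46 ± 0.08 (adjusted p = 2.95e-27). Gpd1, Pck1, Gpam, Agpat2 and Dgat1 were higher in 23-CATA cells on all 4 days. Dgat2 changed sides. It was higher on day 2 at 2.73 ± 0.06 (adjusted p = 4.17e-25) and on day 6 at 0.97 ± 0.06 (adjusted p = 1.68e-14). On day 4 it was lower at -0.93 ± 0.06 (adjusted p = 1.4e-14), with 286.31, 266.36 and 263.51 FPKM in 23-CATA cells against 563.55, 565.3 and 523.56 FPKM in 23-NC cells.

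The lipins fell behind in 23-CATA cells by day 6. Lpin1 measured 51.49, 48.53 and 51.74 FPKM in 23-CATA cells, against 91.43, 82.79 and 93.94 FPKM in 23-NC cells, a change of -0.82 ± 0.11 (adjusted p = 2.59e-07). Lpin2 was at -0.49 ± 0.09 (adjusted p = 1.42e-05) and Lpin3 at -0.996 ± 0.08 (adjusted p = 3.34e-12), with 3.28, 3.9 and 3.49 FPKM of Lpin3 in 23-CATA cells against 7.26, 8.54 and 8.18 FPKM in 23-NC cells. No library of either group overlapped the other for these 3 genes on day 6.

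**Figure D2:**
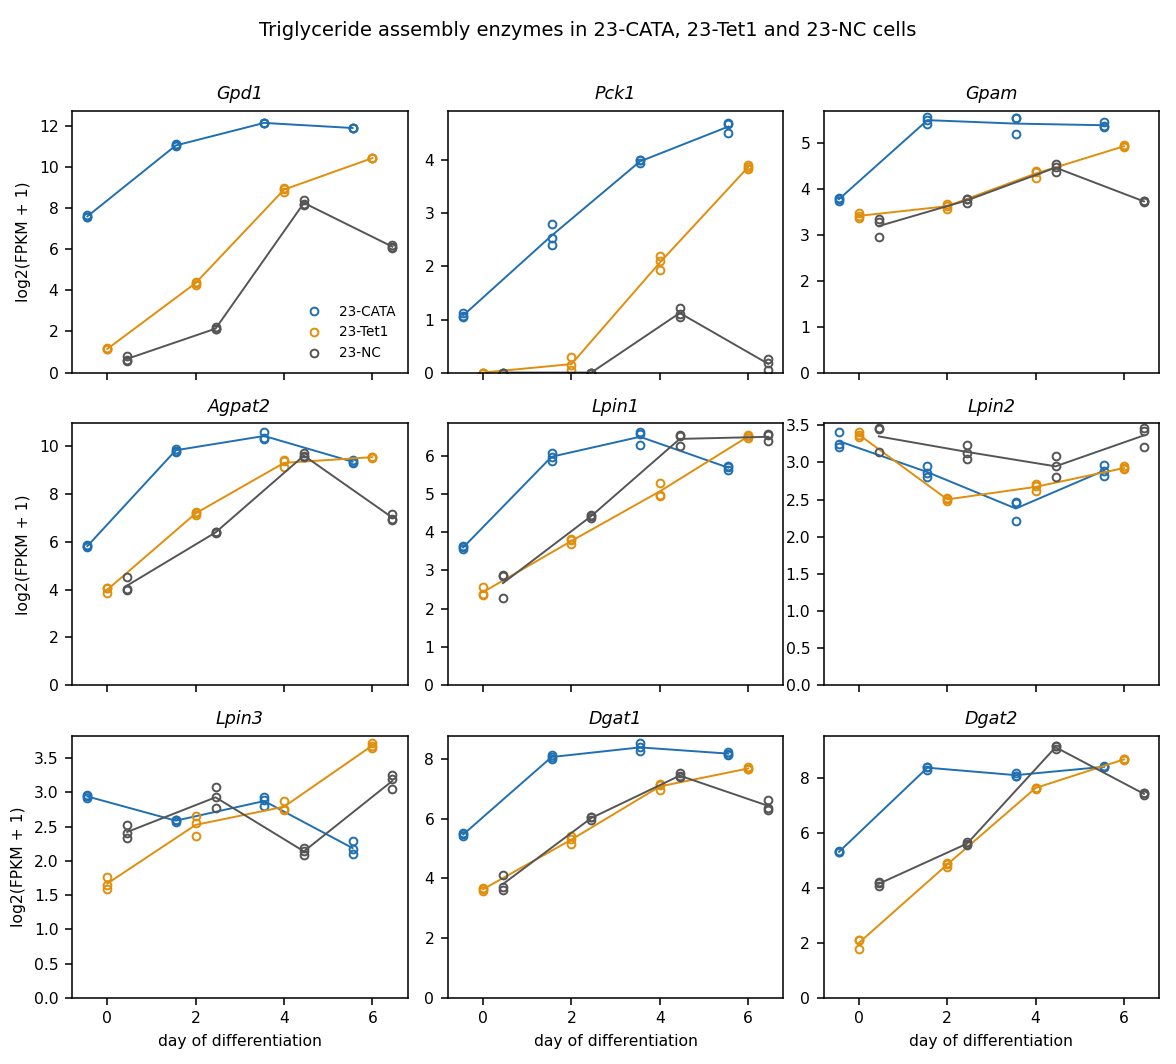
Level of each gene as log2(FPKM + 1) by day in 23-CATA (blue, drawn left), 23-Tet1 (orange, middle) and 23-NC cells (grey, right), with 1 circle per library and lines through the means of the 3 libraries. Gpd1 of 23-CATA cells starts between 188.63 and 200.54 FPKM on day 0, and in 23-NC cells Gpd1, Agpat2 and Dgat2 fall after day 4.

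In 23-Tet1 cells 2 or 3 of the 9 genes were above 23-NC cells on each day before day 6, when 7 were. On day 0, 2 of the 9 genes were higher in 23-Tet1 than in 23-NC cells (37.8% of genes) and 2 lower (23.5% of genes), and on day 2, 2 were higher (38.7% of genes) and 5 lower (25.2% of genes). On day 4, 3 were higher (35.0% of genes) and 5 lower (21.9% of genes), and on day 6, 7 were higher (36.0% of genes) and 1 lower (29.0% of genes). Medians of the 9 genes were -0.27, -0.50, -0.36 and 1.20 on these days. These comparisons use the same 23-NC libraries as those of 23-CATA cells. On day 6 the adipocyte markers summed to 50083.61 to 57958 FPKM in 23-Tet1 libraries against 10531.86 to 11926.96 FPKM in 23-NC libraries, and the mesenchymal markers to 1978.88 to 2018.64 FPKM in 23-Tet1 libraries against 3944.43 to 4163.39 FPKM in 23-NC libraries. Their part in the day 6 differences was not tested. The day 0 counts depended on the scaling: after quantile normalization or median-ratio scaling Gpam lost its call and Agpat2, Lpin1 and Dgat1 were called lower (median-ratio adjusted p = 0.0227, 0.0166 and 0.0154), which makes 1 higher and 5 lower. The Gpam call, at 0.13 ± 0.08 (adjusted p = 0.0193), was also lost without 23-Tet1 replicate 1 (adjusted p = 0.0805) or 23-NC replicate 1 (adjusted p = 0.253).

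The Dgat2 difference between 23-Tet1 and 23-NC cells turned round between day 0 and day 6. It measured 3.28, 3.31 and 2.46 FPKM in 23-Tet1 cells on day 0, against 17.31, 17.15 and 15.62 FPKM in 23-NC cells (-2.24 ± 0.06, adjusted p = 3.83e-22). On day 6 it measured 408.71, 413.26 and 393.94 FPKM in 23-Tet1 cells, against 164.47, 171.47 and 171.95 FPKM in 23-NC cells (1.20 ± 0.06, adjusted p = 1.4e-16). The groups did not overlap on either day. Pck1 was listed at 0 in all libraries of both on day 0, and on day 6 it measured 13.28, 14.11 and 13.62 FPKM in 23-Tet1 cells, against 0.03, 0.14 and 0.2 FPKM in 23-NC cells (3.66 ± 0.08, adjusted p = 5.27e-25).

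Gpd1 led in 23-Tet1 cells on every day, by 0.39 ± 0.06 on day 0 (adjusted p = 1.37e-07), 2.12 ± 0.06 on day 2 (adjusted p = 2.97e-22), 0.56 ± 0.06 on day 4 (adjusted p = 5.94e-10) and 4.26 ± 0.06 on day 6 (adjusted p = 4.66e-29). On day 6 it measured 1371.67, 1395.82 and 1383.95 FPKM in 23-Tet1 cells, against 64.71, 73.42 and 68.54 FPKM in 23-NC cells. Agpat2 stood at 738.85, 751.11 and 732.07 FPKM in 23-Tet1 cells on day 6, against 119.63, 140.09 and 124.18 FPKM in 23-NC cells (2.48 ± 0.10, adjusted p = 6.88e-19). On day 4 Agpat2 had been lower, at -0.39 ± 0.10 (adjusted p = 0.0115), a call lost without 23-Tet1 replicate 2 (adjusted p = 0.0962) or 23-NC replicate 3 (adjusted p = 0.0551). Gpam and Dgat1 were higher on day 6 by 1.15 ± 0.08 (adjusted p = 1.58e-13) and 1.20 ± 0.09 (adjusted p = 1.56e-12).

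Lpin1 and Lpin2 did not share the day 6 lead. Lpin1 was lower in 23-Tet1 cells at -0.75 ± 0.11 on day 2 (adjusted p = 1.17e-05) and at -1.46 ± 0.11 on day 4 (adjusted p = 1.87e-11), with 30.29, 37.94 and 30.09 FPKM in 23-Tet1 cells against 91.25, 92.05 and 75.43 FPKM in 23-NC cells on day 4. On day 6 the 2 groups overlapped, with 92.19, 91.27 and 86.6 FPKM in 23-Tet1 cells and 91.43, 82.79 and 93.94 FPKM in 23-NC cells (-0.04 ± 0.11, adjusted p = 0.939). Lpin2 was lower on day 6 at -0.49 ± 0.09 (adjusted p = 5.49e-05), and Lpin3 was higher at 0.47 ± 0.08 (adjusted p = 1.43e-06).

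**Figure D3:**
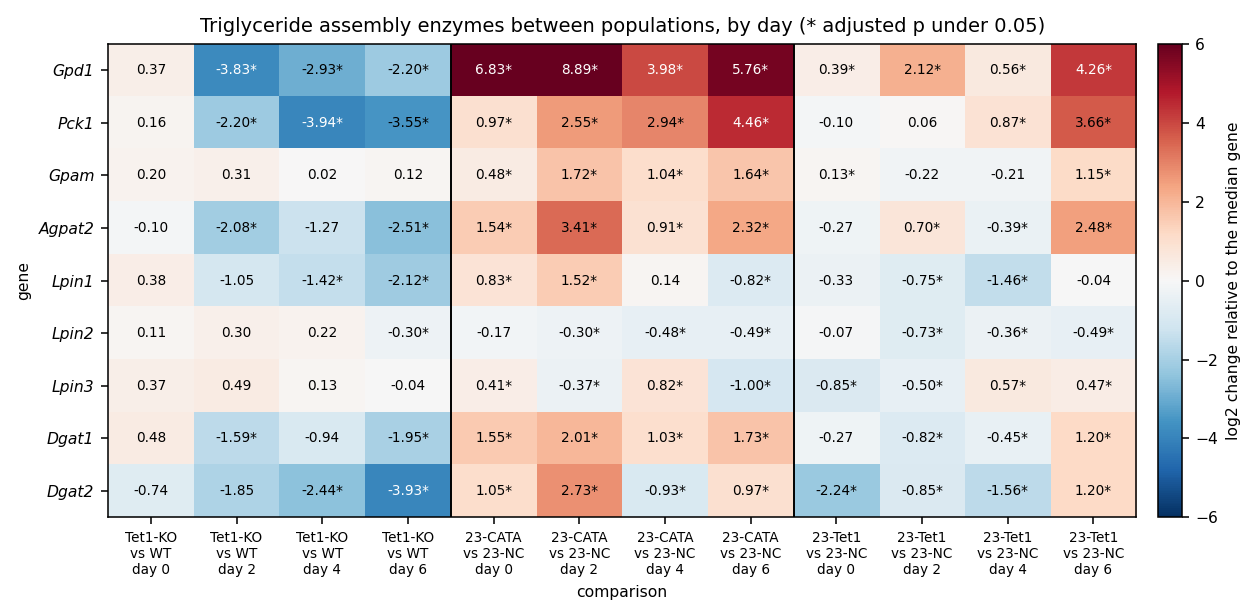
Change of each gene, as log2 of FPKM + 1 relative to the median gene, for Tet1-KO against WT, 23-CATA against 23-NC and 23-Tet1 against 23-NC cells on days 0, 2, 4 and 6. Stars mark an adjusted p under 0.05. Tet1-KO changes that pass are all negative, the 23-CATA changes of Gpd1 run from 3.98 to 8.89, and the 23-Tet1 changes of Dgat2 turn from -2.24 on day 0 to 1.20 on day 6.

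Between the 2 populations with high Tet1, 23-CATA cells were ahead of 23-Tet1 cells up to day 4 and mixed with them on day 6. On day 0, 8 genes were higher in 23-CATA cells (32.9% of genes) and 0 lower (31.3% of genes), and on day 2, 8 were higher (30.3% of genes) and 0 lower (37.1% of genes). On day 4, 7 were higher (27.6% of genes) and 1 lower (46.6% of genes, after a median shift of -0.16), and on day 6, 4 were higher (31.9% of genes) and 3 lower (33.8% of genes). Medians were 1.26, 2.47, 1.29 and -0.03. Gpd1 was ahead by 6.45 ± 0.06 on day 0 (adjusted p = 2.44e-34) and still by 1.47 ± 0.06 on day 6 (adjusted p = 4.57e-18), with 3766.05, 3834.94 and 3852.34 FPKM in 23-CATA cells against 1371.67, 1395.82 and 1383.95 FPKM in 23-Tet1 cells. Lpin3 showed the largest day 6 difference the other way, at -1.49 ± 0.08 (adjusted p = 4.81e-16), with 3.28, 3.9 and 3.49 FPKM in 23-CATA cells against 11.84, 12.13 and 11.58 FPKM in 23-Tet1 cells. Lpin1 was at -0.81 ± 0.11 (adjusted p = 3.62e-07) and Dgat2 at -0.26 ± 0.06 (adjusted p = 0.000441). The day 4 Dgat2 difference of 0.63 ± 0.06 (adjusted p = 1.24e-07) and the day 4 Lpin2 difference of -0.13 ± 0.09 (adjusted p = 0.00327) changed sign after quantile normalization.

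From day 0 to day 6 most of the 9 genes rose in all 3 populations of the 23-cell table, with the largest median in 23-Tet1 cells. On day 2 against day 0, 7 rose and 2 fell in 23-CATA cells (27.0% and 45.2% of genes), 7 rose and 1 fell in 23-Tet1 cells (28.8% and 35.6% of genes), and 7 rose and 1 fell in 23-NC cells (24.4% and 35.1% of genes). On day 4 these counts were 7 and 1 in 23-CATA cells (25.8% and 55.6% of genes), 8 and 1 in 23-Tet1 cells (31.0% and 40.6% of genes) and 7 and 2 in 23-NC cells (30.2% and 42.2% of genes). On day 6 they were 7 and 2 in 23-CATA cells (27.3% and 49.7% of genes), 8 and 1 in 23-Tet1 cells (32.8% and 44.7% of genes), and 7 and 0 in 23-NC cells (31.7% and 40.5% of genes), with medians of 2.93, 4.16 and 2.69. Lpin2 was the gene that fell in all 3 populations on days 2 and 4, though its day 2 fall in 23-NC cells, by 0.14 ± 0.09 (adjusted p = 0.0373), was lost without 23-NC day 0 replicate 2 or 3 or day 2 replicate 1 or 3 (highest adjusted p 0.172). The median shifts of all genes were -0.16, -0.34 and -0.22 on days 2, 4 and 6 in 23-CATA cells and -0.12 on day 6 in 23-Tet1 cells. Gpd1 rose by 4.52 ± 0.06 in 23-CATA cells (adjusted p = 7.19e-30), by 9.40 ± 0.06 in 23-Tet1 cells (adjusted p = 1.52e-38) and by 5.53 ± 0.06 in 23-NC cells (adjusted p = 1.13e-32). The difference of these changes passed for 8 of the 9 genes between 23-Tet1 and 23-NC cells. For 7 the rise was larger in 23-Tet1 cells (29.1% of genes), and for Lpin2 the change was lower there (32.3% of genes). Lpin2 averaged 9.36 FPKM on day 0 and 6.59 FPKM on day 6 in 23-Tet1 cells, and 9.25 and 9.32 FPKM in 23-NC cells. The difference of changes was 3.87 ± 0.09 for Gpd1 (adjusted p = 5.69e-24), 3.75 ± 0.12 for Pck1 (adjusted p = 4.51e-21) and 3.44 ± 0.09 for Dgat2 (adjusted p = 4.91e-23). Between 23-CATA and 23-NC cells it passed in favour of 23-CATA for Pck1, Gpam and Agpat2 (27.5% of genes) and of 23-NC for Gpd1, Lpin1, Lpin2 and Lpin3 (36.0% of genes). Between 23-CATA and 23-Tet1 cells it passed for 7 genes, all with the lower change in 23-CATA cells (34.8% of genes), and Gpd1 was at -4.95 ± 0.09 (adjusted p = 2.27e-27). Lpin3, among these, went opposite ways. Its mean fell from 6.67 to 3.56 FPKM in 23-CATA cells and rose from 2.18 to 11.85 FPKM in 23-Tet1 cells.

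Between day 2 and day 4 the pathway was still rising in most populations. Tet1-KO cells gave 2 higher and 0 lower genes (4.25% and 10.0% of genes, after a median shift of -0.20) and WT cells 3 higher and 0 lower (6.86% and 10.6% of genes), with Gpd1 and Lpin1 among the rises of both and Pck1 among those of WT cells. With the 2 WT days fitted alone, Agpat2 (0.943, adjusted p = 0.000168) and Dgat2 (0.992, adjusted p = 0.000936) also rose. Gpam fell in that fit (-0.332, adjusted p = 0.00131). With the 2 Tet1-KO days fitted alone, the rises of Gpd1 (adjusted p = 0.0904) and Lpin1 (adjusted p = 0.132) were lost. The Lpin1 rise in Tet1-KO cells, 1.96 ± 0.45 (adjusted p = 0.0141), was lost without day 2 replicate 1 or 3 or day 4 replicate 2 (highest adjusted p 0.083). In 23-CATA cells 6 rose and 2 fell (20.0% and 43.2% of genes, after a median shift of -0.15), in 23-Tet1 cells 8 rose and 0 fell (21.8% and 26.6% of genes), and in 23-NC cells 7 rose and 1 fell (24.6% and 29.7% of genes). Gpd1 rose over this step by 1.24 ± 0.06 in 23-CATA cells (adjusted p = 9.35e-15), by 4.58 ± 0.06 in 23-Tet1 cells (adjusted p = 1.03e-29) and by 6.15 ± 0.06 in 23-NC cells (adjusted p = 2.22e-33). Dgat2 had already levelled off in 23-CATA cells, at -0.12 ± 0.06 (adjusted p = 0.000451, and 0.496 after median-ratio scaling), while it rose by 2.81 ± 0.06 in 23-Tet1 cells (adjusted p = 1.18e-24) and by 3.53 ± 0.06 in 23-NC cells (adjusted p = 6.16e-27). The fall in 23-NC cells was that of Lpin3, by 0.76 ± 0.08 (adjusted p = 9.15e-10).

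Between day 4 and day 6 the populations moved apart. In 23-CATA cells 3 of the 9 genes rose and 4 fell (28.4% and 9.77% of genes, after a median shift of 0.11), in 23-Tet1 cells 9 rose and 0 fell (26.8% and 30.1% of genes), and in 23-NC cells 2 rose and 6 fell (31.6% and 29.0% of genes). In 23-NC cells Gpd1 measured 64.71, 73.42 and 68.54 FPKM on day 6, against 293.66, 285.63 and 334.91 FPKM on day 4 (-2.14 ± 0.06, adjusted p = 2.57e-21). Agpat2 measured 119.63, 140.09 and 124.18 FPKM on day 6, against 733.57, 767.44 and 825.68 FPKM on day 4 (-2.60 ± 0.10, adjusted p = 8.32e-19), and Dgat2 164.47, 171.47 and 171.95 FPKM, against 563.55, 565.3 and 523.56 FPKM (-1.70 ± 0.06, adjusted p = 2.43e-19). Gpam, Dgat1 and Pck1 also fell there, by 0.74 ± 0.08 (adjusted p = 6.28e-09), 1.02 ± 0.09 (adjusted p = 1.91e-10) and 0.97 ± 0.08 (adjusted p = 3.85e-11). Lpin1 did not pass in 23-NC cells, with 91.43, 82.79 and 93.94 FPKM on day 6 and 91.25, 92.05 and 75.43 FPKM on day 4 (0.05 ± 0.11, adjusted p = 0.698). The adipocyte marker sum in 23-NC libraries was 10531.86 to 11926.96 FPKM on day 6 and 20010.65 to 27302.19 FPKM on day 4. The mesenchymal marker sum there was 3944.43 to 4163.39 FPKM on day 6 and 1489.24 to 1701.67 FPKM on day 4. The sum of 5 immune markers, of which 1 reached 1 FPKM, was 124.93 to 132.35 FPKM on day 6 and 15.5 to 16.8 FPKM on day 4. The immune markers Ptprc, Adgre1 and Cd3e were listed at 0 in every 23-NC library of both days, so this sum does not stand for the whole list. The part of the marker sums in the falls was not tested.

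Over the same step Gpd1 rose in 23-Tet1 cells by 1.56 ± 0.06 (adjusted p = 1.92e-18), Pck1 by 1.83 ± 0.08 (adjusted p = 2.44e-17), Lpin1 by 1.46 ± 0.11 (adjusted p = 6.08e-12) and Dgat2 by 1.07 ± 0.06 (adjusted p = 1.36e-14). The smallest of the 9 rises were fragile. Agpat2, at 0.27 ± 0.10 (adjusted p = 0.0445), lost its call without 23-Tet1 day 4 replicate 2 or any of the day 6 libraries (highest adjusted p 0.254), and Lpin2, at 0.28 ± 0.09 (adjusted p = 0.0132), without 23-Tet1 day 4 replicate 1 (adjusted p = 0.0507). In 23-CATA cells Agpat2 fell by 1.19 ± 0.10 (adjusted p = 6.19e-10), Lpin1 by 0.92 ± 0.11 (adjusted p = 1.27e-06) and Lpin3 by 0.80 ± 0.08 (adjusted p = 3.35e-08), while Pck1 rose by 0.55 ± 0.08 (adjusted p = 1.79e-07). The fall of Gpd1 by 0.36 ± 0.06 in 23-CATA cells (adjusted p = 0.00255) turned to 0.03 after quantile normalization (adjusted p = 0.811).

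In the knockout table the same step gave 0 higher and 4 lower genes in Tet1-KO cells (5.81% and 6.24% of genes), and 1 higher and 1 lower in WT cells (17.6% and 3.73% of genes, after a median shift of 0.22). The WT counts depended on the fit. With the 2 WT days fitted alone, Gpd1 (-1.3, adjusted p = 0.0126) and Lpin1 (-0.748, adjusted p = 0.0468) also fell. So did Dgat1 (-0.712, adjusted p = 0.00337) and Dgat2 (-0.828, adjusted p = 0.0192), while Pck1 rose (0.606, adjusted p = 0.00211). Pck1 did not pass in Tet1-KO cells with all libraries (0.98, adjusted p = 0.0604), but rose by 1.27 without day 6 replicate 2 (adjusted p = 0.00836). It also passed with library weights (adjusted p = 1.89e-05), quantile normalization (adjusted p = 0.0332) and median-ratio scaling (adjusted p = 0.0426). Agpat2 fell in Tet1-KO cells by 3.45 ± 0.66 (adjusted p = 0.00662). Without day 6 replicate 2 it fell by 2.53 (adjusted p = 0.00906). None of the 4 Tet1-KO falls passed when the 2 Tet1-KO days were fitted alone (adjusted p = 0.67). The other 3, Lpin1 at -1.46 ± 0.45 (adjusted p = 0.0378), Dgat1 at -1.73 ± 0.45 (adjusted p = 0.0243) and Dgat2 at -2.33 ± 0.75 (adjusted p = 0.0465), lost their calls without Tet1-KO day 4 replicate 1 or 2 or day 6 replicate 2 (highest adjusted p 0.187, 0.123 and 0.225).

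**Figure D4:**
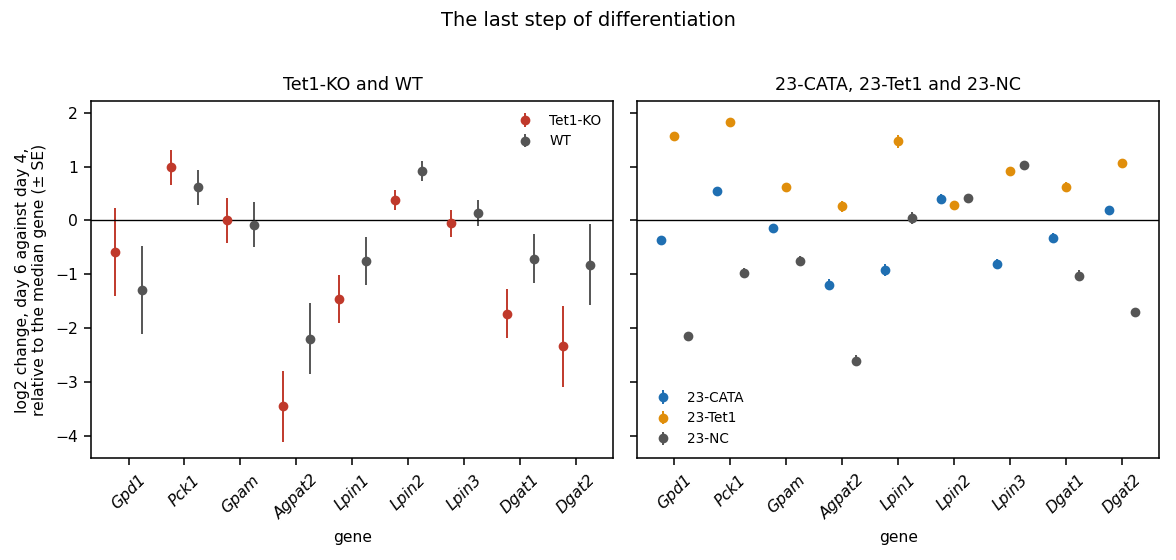
Change from day 4 to day 6 of each gene, as log2 of FPKM + 1 relative to the median gene with the SE as bars, in Tet1-KO and WT cells (left panel) and in 23-CATA, 23-Tet1 and 23-NC cells (right panel). All 9 points of 23-Tet1 cells lie above 0, and Agpat2 lies below 0 in the other 4 populations.

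By group means of the 23-cell table, Gpd1 covered the widest range of the genes with no group mean at 0. Its highest mean was 4532 FPKM in 23-CATA cells on day 4 and its lowest 0.59 FPKM in 23-NC cells on day 0, and 0 of the 11 neighbouring groups in the order of the 23-cell table overlapped. Dgat2 had its highest mean, 550.8 FPKM, in 23-NC cells on day 4, and its lowest, 3.02 FPKM, in 23-Tet1 cells on day 0, with 1 of 11 neighbours overlapping. Lpin2 had the narrowest range, with group means between 4.22 FPKM in 23-CATA cells on day 4 and 9.36 FPKM in 23-Tet1 cells on day 0, and 8 of 11 neighbours overlapped. In the knockout table Dgat2, Gpam and Lpin3 each overlapped for 6 of 7 neighbours, so their order there is not clear beyond the spread.

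Within enzyme families the share of the family FPKM held by each gene changed along with its level, given here as a description. Lpin1 held 24.2 ± 2.3%, 48.4 ± 19.4%, 78.1 ± 14.4% and 53.3 ± 14.3% of the lipin FPKM in Tet1-KO cells on days 0, 2, 4 and 6, and 20.1 ± 3.2%, 75.7 ± 4.9%, 93.7 ± 0.7% and 81.7 ± 2.9% in WT cells (SD, n = 3 each). Lpin2 held the largest share on day 0 in Tet1-KO, WT, 23-Tet1 and 23-NC cells, at 62.9 ± 2.8%, 69.9 ± 3.4%, 58.7 ± 2.0% and 48.6 ± 1.3%. In 23-CATA cells Lpin1 was already ahead on day 0, with 41.9 ± 1.0% beside 32.9 ± 1.8% for Lpin2. By day 2 the mean share of Lpin1 was the largest in all 5 populations. In Tet1-KO cells that lead came from day 2 replicate 2, with 8.65 FPKM of Lpin1 against 2.71 FPKM of Lpin2. Lpin2 was ahead in day 2 replicate 1 (5.31 against 4.2 FPKM) and replicate 3 (5.79 against 4.73 FPKM).

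**Figure D5:**
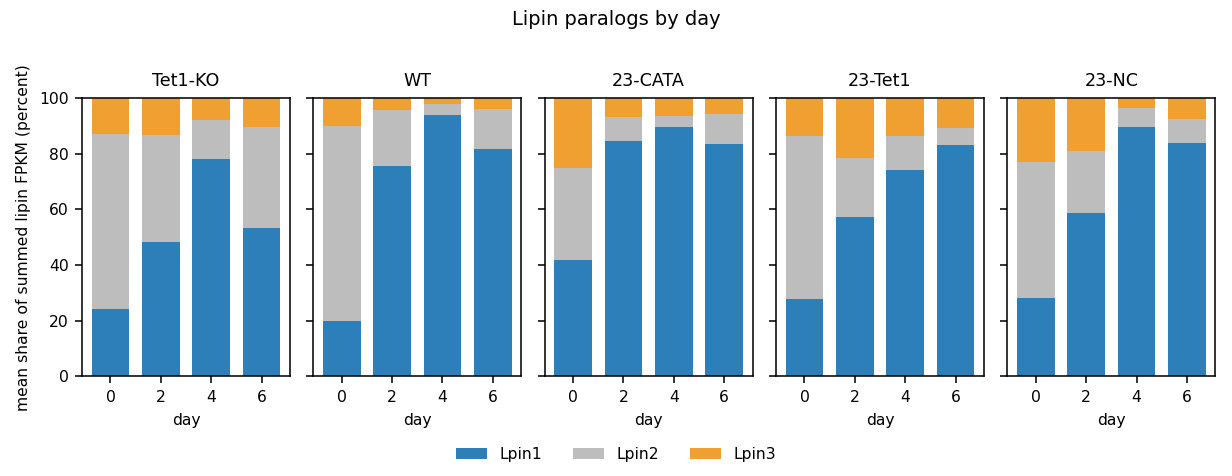
Mean share of Lpin1 (blue), Lpin2 (grey) and Lpin3 (orange) in the summed FPKM of the 3 lipins, in percent, by day in each of the 5 populations (3 libraries per bar). Lpin1 reaches 93.7% in WT cells on day 4, against 78.1% in Tet1-KO cells, and 83.0% to 83.8% on day 6 in 23-CATA, 23-Tet1 and 23-NC cells.

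Dgat2 held 30.1 ± 9.9%, 33.4 ± 8.4%, 26.6 ± 15.0% and 17.9 ± 7.2% of the summed Dgat1 and Dgat2 FPKM in Tet1-KO cells on days 0, 2, 4 and 6, and 51.4 ± 4.0%, 37.5 ± 5.0%, 49.0 ± 3.2% and 47.0 ± 4.9% in WT cells. In 23-Tet1 cells its share climbed over the 4 days, from 20.9 ± 2.8% through 42.0 ± 1.1% and 59.5 ± 1.4% to 66.6 ± 0.6%, and in 23-NC cells it was 56.2 ± 4.0%, 42.8 ± 0.8%, 76.1 ± 1.7% and 66.6 ± 2.8%. Pck1 held 6.6 ± 2.2% of the summed Pck1 and Pck2 FPKM in Tet1-KO cells on day 6 and 56.2 ± 5.4% in WT cells, Pck2 being the mitochondrial form. On that day the Pck1 share was 56.9 ± 1.7% in 23-CATA, 43.9 ± 1.4% in 23-Tet1 and 0.4 ± 0.3% in 23-NC cells. Gpd1 already held 96.4 ± 0.3% of the summed Gpd1 and Gpd1l FPKM in 23-CATA cells on day 0, against 17.8 ± 2.1% in 23-Tet1 and 10.6 ± 1.8% in 23-NC cells. On day 4 Gpam held 14.5 ± 3.0% of the FPKM of the 4 glycerol-3-phosphate acyltransferases in Tet1-KO cells and 8.6 ± 0.2% in WT cells. Gpat3, another of the 4, held 54.4 ± 6.6% in Tet1-KO cells and 60.9 ± 1.6% in WT cells.

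Across group means, levels of Agpat2 and Dgat1 went together most closely, with r = 0.99 over the 8 groups of the knockout table. Lpin2 ran against most of the route, at r = -0.74 with Agpat2 and -0.66 with Dgat1, and Lpin3 was near flat against it, between 0.05 and 0.34 with the other genes. Groups share populations and days, so these are descriptions. The genes whose group means were most like those of a member, given here for some members, were, in the knockout table, Pex6, Olr1 and Mrap for Gpd1 (r = 0.99 each), Prkar2b, Pfkl and Pcx for Dgat1 (0.99 or above), and Hcar1, Slc27a1 and B3galt2 for Pck1 (0.99, 0.99 and 0.99). Over the 12 groups of the 23-cell table they were Lgals12, Mcam and Mrap for Gpd1 (0.98, 0.98 and 0.97), and Nr1d2, Rock2 and Pml for Lpin2 (0.97, 0.95 and 0.94).

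Other genes of the triglyceride route moved in both directions. Of 24 listed, among them acyl-CoA synthetases, other acyltransferases and lipid droplet or glycerol transport genes, 21 were tested. In Tet1-KO against WT cells 6 were higher (16.2% of all genes tested) and 5 lower (6.76%) on day 2, and 2 higher (15.7%) and 9 lower (29.7%) on day 6. On day 6 the furthest down were Aqp7, a glycerol channel, at -2.34 ± 0.40 (adjusted p = 8.78e-05), Bscl2, the lipid droplet protein seipin, at -1.98 ± 0.21 (adjusted p = 6.39e-07), and Acsl1, an acyl-CoA synthetase of fat, at -1.52 ± 0.52 (adjusted p = 0.0117). In 23-CATA against 23-NC cells on day 0, 11 were higher (31.6% of all genes) and 1, Acsl3, lower (11.7%), led by Acsl1 at 3.18 ± 0.06 (adjusted p = 1.21e-26) and Aqp7 at 3.14 ± 0.08 (adjusted p = 2.69e-24). In 23-Tet1 against 23-NC cells on day 6, 13 were higher (36.0% of all genes) and 6 lower (29.0%), led by Aqp7 at 4.08 ± 0.08 (adjusted p = 1.51e-26).

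Genes of the phospholipid branch, which draws on the same phosphatidic acid and diacylglycerol, were tested for 17 of 19. In Tet1-KO against WT cells on day 6, 1 was higher (15.7% of all genes) and 12 lower (29.7%), with a median of -0.48. Chpt1 and Cept1, which use diacylglycerol to make phosphatidylcholine, were at -1.86 ± 0.44 (adjusted p = 0.00115) and -1.78 ± 0.41 (adjusted p = 0.000842). Pcyt1b, another enzyme of the same branch, was at 1.36 ± 0.24 (adjusted p = 0.00072). On day 2, 2 of the 17 were higher (16.2% of all genes) and 1 lower (6.76%), shares near or below those of all genes. The fat cell genes Adipoq, an adipokine, and Cebpa, a transcription factor of fat cells, were lower in Tet1-KO cells on day 6. Their changes were -1.81 ± 0.55 (adjusted p = 0.00679) and -2.58 ± 0.62 (adjusted p = 0.00149). Of the enzymes that build triglyceride, Pck1 (-3.55 ± 0.32) and Dgat2 (-3.93 ± 0.75) lay below both. Between Adipoq and Cebpa lay Gpd1 (-2.20), Agpat2 (-2.51), Lpin1 (-2.12) and Dgat1 (-1.95). Gpam (0.12), Lpin2 (-0.30) and Lpin3 (-0.04) lay above both. Whether any of these enzymes fell further than Adipoq or Cebpa was not tested.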

How the data were processed

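RNA sequencing of C3H10T1/2 cells gave 2 gene tables of FPKM, deposited by the authors; STAR 2.4.1a, RSEM and the mm10 build are named in the submitters' processing notes. Both tables were analysed apart, since whether they were normalized together is not given in the sources used here. In the table of 23-CATA, 23-Tet1 and 23-NC cells, 4 rows with repeated symbols were left out. Genes with at least 1 FPKM in at least 3 libraries of a table were kept, and log2(FPKM + 1) was fitted with limma (all groups of a table in 1 fit, moderated variance with trend) with Benjamini-Hochberg adjustment. A change on this scale understates that of low genes. Whole fragments could not be recovered as counts from FPKM, so depth is approximate. The fit was tested on simulated data. Promoter windows are RefSeq's, and overlaps between genes come from GENCODE M21. The 9 genes and all gene lists were chosen with earlier results of these data known. All 9 genes are named in the text. From each other list up to 3 called genes with the largest change each way were named for chosen comparisons.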

Additional observations from a re-analysis of the deposited data

Results flagged for a closer look

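The change from day 0 to day 6 differed between populations, by a test of the difference itself, in 26 of the 36 cases formed by 9 genes and 4 pairs of populations, and each is given here as a log2 difference relative to the median gene.
Between Tet1-KO and WT cells the change was smaller in Tet1-KO cells for Lpin1 (-2.51), Dgat1 (-2.43), Dgat2 (-3.21) and Pck1 (-3.72).
Between 23-Tet1 and 23-NC cells it was larger in 23-Tet1 cells for Gpd1 (3.87), Gpam (1.02), Agpat2 (2.74), Lpin3 (1.31), Dgat1 (1.47), Dgat2 (3.44) and Pck1 (3.75), and lower for Lpin2 (-0.42).
Between 23-CATA and 23-NC cells it was larger in 23-CATA cells for Gpam (1.16), Agpat2 (0.78) and Pck1 (3.49), and lower for Gpd1 (-1.07), Lpin1 (-1.65), Lpin2 (-0.32) and Lpin3 (-1.41).
Between 23-CATA and 23-Tet1 cells it was lower in 23-CATA cells for Gpd1 (-4.95), Agpat2 (-1.98), Lpin1 (-1.95), Lpin3 (-2.73), Dgat1 (-1.30), Dgat2 (-3.54) and Pck1 (-0.27). The Pck1 difference was lost without 23-CATA day 6 replicate 3 (adjusted p = 0.0695), after median-ratio scaling (-0.187, adjusted p = 0.21) and after quantile normalization (-0.0209, adjusted p = 0.794). All 7 genes stood at higher levels in 23-CATA than in 23-Tet1 cells on day 0, before the change was counted.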

How the results depend on the processing

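Of 135 comparisons of the 9 genes in the knockout table, 71 passed, and 44 of these passed under every alternative tried; in the 23-cell table these were 270, 238 and 219. Weighting libraries by their scatter around the group mean raised the calls for Tet1-KO against WT cells over the 4 days to 26, from 15, and those for the steps between days in the knockout table to 25, from 11. Weighted Tet1-KO values of days 4 and 6 rest largely on replicate 1, with weights of 20.1 and 2.45. Replicates 2 and 3 had weights of 0.132 and 0.271 on day 4, and of 0.0124 and 0.122 on day 6. With 1 library left out at a time, calls ranged from 11 to 18 for Tet1-KO against WT cells, from 7 to 13 for the steps in the knockout table, from 3 to 6 (4 with all libraries) for the difference of changes in the knockout table, from 15 to 18 for Tet1-KO days, from 23 to 24 for WT days, from 26 to 29 for 23-Tet1 against 23-NC cells, and from 47 to 49 for the steps in the 23-cell table. Gpam in Tet1-KO against WT cells on day 6 turned to -0.80 without Tet1-KO day 6 replicate 2 and reached 0.84 without replicate 3, with fewer libraries in the group. Quantile normalization turned Lpin2 (to 0.045) and Dgat2 (to -0.031) in 23-CATA against 23-Tet1 cells on day 4, Lpin3 in 23-NC cells on day 4 against day 0 (to 0.00068) and Gpd1 in 23-CATA cells on day 6 against day 4 (to 0.035), and the cause was not tested.

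Fits with the replicate number as a block gave 17 calls for Tet1-KO against WT cells, 24 for WT days, 17 for Tet1-KO days, 10 for the steps in the knockout table, 4 for the difference of changes in the knockout table, 27 for 23-Tet1 against 23-NC, 34 for 23-CATA against 23-NC, 31 for 23-CATA against 23-Tet1, 24 for 23-NC days, 26 for 23-Tet1 days, 26 for 23-CATA days, 47 for the steps in the 23-cell table and 22 for the difference of changes in the 23-cell table. Deviations of libraries with the same number correlated between -0.468 and 0.585 (123 pairs, median 0.0424), and every pair exceeded 0.1 in 3 of 41 comparisons, so the numbers were not treated as pairs. Alternatives for genes of the other lists were chosen after seeing the data; Chpt1 and Cept1 in Tet1-KO against WT cells on day 6 were lost when the groups were fitted alone (adjusted p = 0.0635 and 0.108). Low levels limit Lpin3 in the knockout table and Pck1 on day 0, where the size of a change against values at 0 depends on the pseudocount.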
